A study of Mus musculus with 6 samples.

Results

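miR-21a-5p (mmu-miR-21a-5p) is the mature microRNA (miRNA) cut from the 5′ arm of the mouse Mir21a hairpin. It was 1 of 1247 mouse miRNAs on the array and was chosen by its name, over all of its probes, without regard to its level. Its levels were measured in sorted mammary epithelial cells of virgin wild-type FVB/N-J mice, on single-colour Agilent arrays hybridised with Cy3-labelled RNA. The sort split lineage-negative, CD24-positive cells by CD29 (integrin beta 1). P4 (Lin-CD24+CD29hi) is labelled as enriched for mammary stem cells (MaSC), and P5 (Lin-CD24+CD29lo) as enriched for luminal cells and, in another label, for luminal progenitors. Each population had 3 arrays, and the design compared P4 with P5. The labels do not say whether the replicates of a population are separate mice or separate sorts. The p-values therefore rest on the spread among these 6 samples alone, part or all of which may be technical. Each is a sorted mixture, so fewer cells of a type and less of a miRNA per cell cannot be told apart.

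A miRNA guides the Argonaute protein to messenger RNAs that pair with its seed, the bases from position 2 to 8, and lowers their output. miR-21 is among the most abundant miRNAs of many mammalian cell types and is known for its rise in breast and other solid tumours. Known targets include Pdcd4, an inhibitor of translation, and the growth signalling inhibitors of the Sprouty family. Its gene is known to respond to STAT3 and AP-1, transcription factors of inflammatory and growth signals.

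The mature sequences show where miR-21a-5p and its relatives differ; probe sequences were not used here. They are RefSeq's for the mouse build GRCm38.p6, written 5′ to 3′ with the seed in capitals. miR-21a-3p is the other arm of the hairpin, miR-21b and miR-21c are encoded elsewhere, and miR-3965 and miR-361-5p are shown because they return below as the miRNAs with the most similar profile.
miR-21a-5p: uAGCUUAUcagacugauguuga
miR-21a-3p: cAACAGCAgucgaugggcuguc
miR-21b: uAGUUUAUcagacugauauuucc
miR-21c: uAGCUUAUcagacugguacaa
miR-3965: uGCUUAUCagccugauguu
miR-361-5p: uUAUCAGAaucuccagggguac
Of 1679 mature miRNAs in the RefSeq table, 2 carry the seed AGCUUAU, miR-21a-5p and miR-21c. miR-21b has another seed. Counted from 1 at the 5′ end of miR-21a-5p, it differs over 22 positions by C4U, G18A, G21U and A22C, and the first of these lies in the seed. miR-590-5p, known as a seed relative of miR-21, was also on the array.

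The hairpin lies on the minus strand at chr11:86584067-86584158 (GRCm38.p6) and overlaps Vmp1, a protein-coding gene for a membrane protein of autophagy. It is shown with the 5p arm in capitals, to place both arms.
Mir21a hairpin: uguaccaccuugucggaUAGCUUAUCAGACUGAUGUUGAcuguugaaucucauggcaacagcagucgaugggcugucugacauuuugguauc
Of its 92 bases, miR-21a-5p takes bases 18 to 39 (chr11:86584120-86584141) and miR-21a-3p bases 56 to 77 (chr11:86584082-86584103). miR-21b lies at chr3:29636768-29636790 on the plus strand and miR-21c at chr8:128278188-128278208 on the minus strand. The file headers name mm9 as the build of the array design, and the files give no positions for the probes.

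miR-21a-5p was a bright signal in both populations. Its mean processed signal, after background subtraction and before any scaling between arrays, was 1512, 3021 and 1913 intensity units on P4 replicates 1, 2 and 3. It was 6058, 4122 and 6468 units on P5 replicates 1, 2 and 3. Every P5 array lay above every P4 array. The signal came from 40 spots per array, 20 for each of 2 probes. All 40 were well above background on each array and 0 were saturated. From 0 to 3 spots per array were left out as outliers.

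The 2 probes gave the same picture. The first was brighter than the second by a ratio of 1.04 to 1.06 on all 6 arrays. Within an array, the spots of a probe varied by 2.71% to 5.28% (coefficient of variation), which is small beside the differences between arrays. Local background around these spots was 28.9 to 33.5 units. Spots of 1 array are repeats of 1 hybridisation and not replicates of a population.

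Arrays differed in their general brightness, with 325 to 384 miRNAs detected per P4 array and 367 to 419 per P5 array. The 75th percentile of the 293 miRNAs detected on all 6 arrays, used here to scale each array, was 186 to 382 units in P4 and 315 to 526 units in P5 (2-sided exact permutation test, p = 0.2; 3 against 3 cannot go below 0.1). After division by it, the scaled signal of miR-21a-5p was 8.13, 7.90 and 7.002 in P4 and 11.5, 9.01 and 20.5 in P5. P4 varied little and P5 widely, with P5 replicate 3 far above the other P5 arrays.

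**Figure D1:**
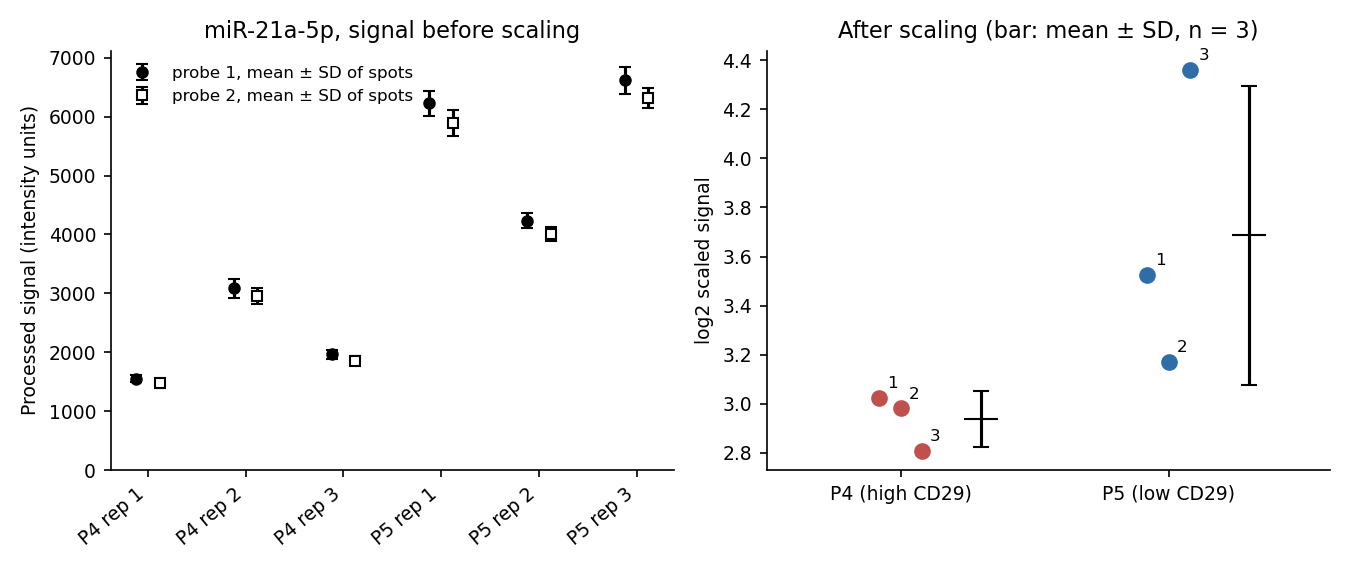
Left: mean processed signal (intensity units) of each of the 2 miR-21a-5p probes on each array, with the SD over its spots. Right: log2 scaled signal per array, numbered by replicate, with the mean ± SD of each population (n = 3). The P4 arrays lie within 0.22 of each other on the log2 scale and P5 replicate 3 stands above the other P5 arrays.

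On the log2 scale the mean was 2.94 ± 0.11 in P4 and 3.69 ± 0.61 in P5 (SD, n = 3 each). P4 minus P5 was -0.75 ± 0.30 (SE), or 1.68-fold higher in P5 with a 95% confidence interval of 1.03 to 2.73. This did not pass the threshold of 0.05 with limma after Benjamini-Hochberg adjustment over 370 tested miRNAs (adjusted p = 0.111, unadjusted p = 0.0398). Of these 370 miRNAs, those detected on all 3 arrays of at least 1 population, 27.8% passed in either direction, with 14.1% lower and 13.8% higher in P4.

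The groups of miR-21a-5p did not overlap, but the gap between the highest P4 and the lowest P5 array was 0.15 on the log2 scale, against a range of 1.19 within P5. Of the tested miRNAs 42.2% had groups that did not overlap, and 21.6% lay lower on every P4 array, so this separation was common among the miRNAs. A 2-sided exact permutation test gave p = 0.1, the smallest possible here. The median difference of all tested miRNAs was 0.0013, and 44 of the 370 had a more negative difference than miR-21a-5p.

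The order of the 6 levels, from high to low, was P5 replicates 3, 1 and 2 and then P4 replicates 1, 2 and 3. P5 replicate 2 (3.17) and P4 replicate 1 (3.02) are neighbours across the populations and differ by less than the SD within P5. P5 replicate 3 decided much of the size. Without it the difference was -0.41 (adjusted p = 0.149), and without P5 replicate 2 it was -1.01 (adjusted p = 0.0501). The SD of miR-21a-5p within P5 was larger than that of 95.9% of the 293 miRNAs detected on all arrays, whose median SD was 0.23. In P4, 17.4% of these miRNAs had a smaller SD.

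Whether miR-21a-5p was called depended on the scaling between arrays. With no scaling the difference was -1.40 (adjusted p = 0.0157), when scaled over all miRNAs on the array -0.92 (adjusted p = 0.0241), and with quantile normalization -0.97 (adjusted p = 0.016). With normexp background correction and quantile normalization it was -0.89 (adjusted p = 0.00888). In these 4 settings it passed as lower in P4. The median difference of all tested miRNAs moved as well, to -0.64, -0.17, -0.13 and -0.05 in the same order, so relative to that median miR-21a-5p lay at -0.76, -0.75, -0.83 and -0.84. The value relative to the median was -0.75 in the setting reported here. The SE of the difference moved too, to 0.36, 0.24, 0.20 and 0.15 in the same order, against 0.30 in the setting reported here. Over all 23 alternatives the difference kept its sign. Some of these, such as testing without a detection filter, change the test but not the estimate, so the sign could not change there. Nor could it change when 1 array was left out, since the groups did not overlap.

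**Figure D2:**
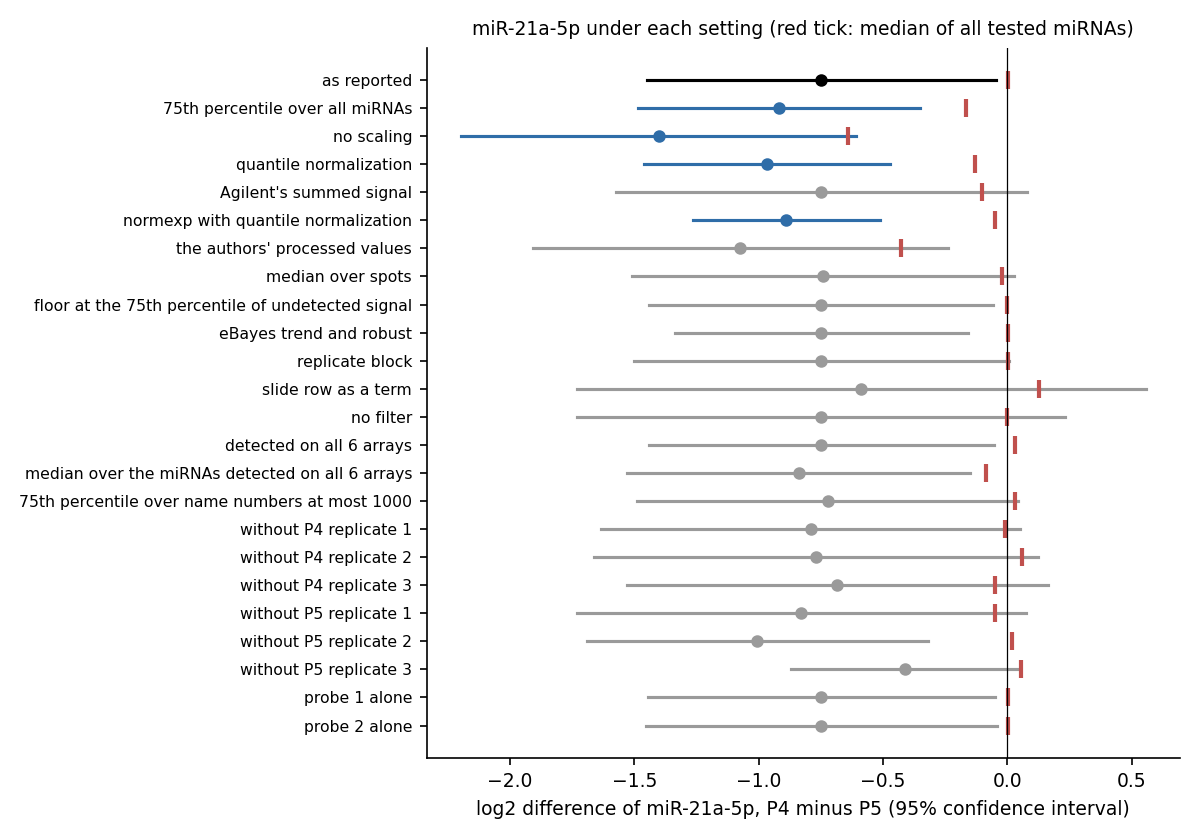
Difference of miR-21a-5p between P4 and P5 on the log2 scale with its 95% confidence interval, as reported (black), under the 4 alternatives in which it passed the threshold (blue) and under the others (grey). Red ticks mark the median difference of all tested miRNAs, which lies furthest left with no scaling, at -0.64, where miR-21a-5p is also lowest, at -1.40.

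The position of the arrays on the slide moved with the populations. All arrays were on 1 slide in 1 scan, and per the file headers the 3 P4 arrays and P5 replicate 1 lay in its first row, the other P5 arrays in its second. Within the first row, P4 minus P5 replicate 1 was -0.59, and with the row as a term in the limma fit this did not pass (adjusted p = 0.409). That fit compares the P4 arrays with 1 P5 array. In the second row there was no P4 array.

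By rank of signal among all 1247 miRNAs, miR-21a-5p stood at 18, 15 and 20 on the P4 arrays and at 7, 10 and 6 on the P5 arrays. Ranks did not overlap between the populations. Probes differ in how they bind and label, so this ranks signals and not copies. It had a share of 0.798%, 0.959% and 0.731% of the summed signal of detected miRNAs in P4, and of 1.59%, 1.31% and 2.33% in P5. The mean share was 0.829% ± 0.117 in P4 and 1.74% ± 0.529 in P5 (SD, n = 3 each; 2-sided exact permutation p = 0.1, the smallest possible). Without P5 replicate 3 the difference in share, -0.914 percentage points with all arrays, was -0.619.

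Most of the signal came from miRNAs with late names. The 449 miRNAs on the array whose name carries a number above 1000 took 67.4% to 73.4% of the summed signal. The 6 brightest in both populations were miR-3963, miR-6366, miR-3968, miR-5100, miR-5097 and miR-6412. In P4 the other 4 of the 10 brightest were miR-6243, miR-125b-5p, miR-143-3p and miR-145a-5p, and in P5 they were miR-21a-5p, miR-5109, miR-6243 and let-7a-5p. Between 5 and 9 late-named miRNAs stood above miR-21a-5p on each array.

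Among the 798 miRNAs with a lower number or a let-7 name, a ranking chosen after seeing the data, miR-21a-5p stood at 9, 6 and 11 in P4 and at 1, 2 and 1 in P5. Its share of their signal was 2.97%, 3.31% and 2.75% in P4 and 4.87%, 4.33% and 8.19% in P5. On P5 replicate 2 only let-7a-5p stood above it, at 4215 against 4122 units. On P5 replicate 3 miR-21a-5p was at 1.73 times the signal of the next, let-7a-5p, a member of the let-7 family, which is known from differentiated cells.

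**Figure D3:**
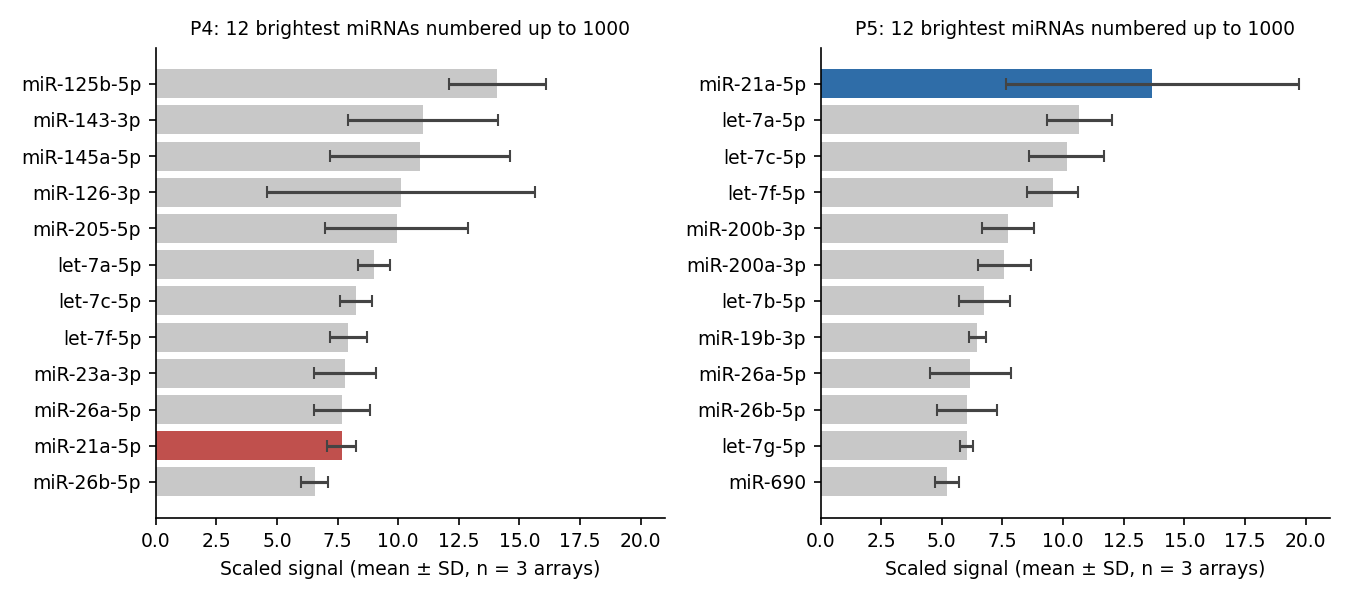
Scaled signal (mean ± SD over 3 arrays) of the 12 brightest miRNAs with a name number up to 1000, in P4 (left) and P5 (right), with miR-21a-5p coloured. miR-21a-5p is the bright one at the top in P5, at 13.7, and stands below 10 others in P4, at 7.68.

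Among these miRNAs, 10 stood above miR-21a-5p by mean scaled signal in P4. miR-125b-5p led with a mean scaled signal of 14.1 ± 2.02 (SD, n = 3). Next came miR-143-3p and miR-145a-5p, a pair known from smooth muscle and other contractile cells, at 11.0 ± 3.09 and 10.9 ± 3.71. The endothelial miR-126-3p stood at 10.1 ± 5.52 and miR-205-5p, known from basal epithelium, at 9.94 ± 2.94, while miR-21a-5p was at 7.68 ± 0.596. Between these and miR-21a-5p came let-7a-5p, let-7c-5p, let-7f-5p, miR-23a-3p and miR-26a-5p. The first 5 were higher in P4 than in P5 with limma (adjusted p from 8.05e-06 to 0.00409). They were named by their brightness in P4 on these same arrays, so this direction is not independent of that choice.

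In P5 the miRNAs next to it were of the let-7 family and of the miR-200 family, known to keep epithelial cells epithelial by repressing Zeb1 and Zeb2. let-7a-5p was at 10.7 ± 1.35, let-7c-5p at 10.1 ± 1.54 and miR-200b-3p at 7.73 ± 1.06, against 13.7 ± 6.06 for miR-21a-5p. The SD of miR-21a-5p there exceeds its distance to let-7a-5p. let-7a-5p (P4 minus P5 -0.24 ± 0.16, SE) and let-7c-5p (-0.29 ± 0.17) did not pass the threshold between the populations. miR-200b-3p fell in P4 (-1.33 ± 0.21, adjusted p = 0.00253 with limma). It was named here by its brightness in P5, so this direction is not independent of that choice.

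The direct neighbours in rank were close in signal. On the P4 arrays the miRNA just above miR-21a-5p was brighter by a ratio of 1.01 to 1.08 and the one just below dimmer by a ratio of 1.01 to 1.02. These were miR-1906 and let-7f-5p on replicate 1, miR-5117-3p and let-7c-5p on replicate 2, and miR-26a-5p and miR-5117-3p on replicate 3. On the P5 arrays they were miR-6412 and let-7a-5p, let-7a-5p and let-7c-5p, and miR-5097 and miR-6412, at ratios of 1.02 to 1.37 above and 1.01 to 1.06 below. On the P4 arrays a step of 1 rank thus corresponds to a difference close to the spread between spots of a probe.

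Ratios within an array need no scaling between arrays. The log2 ratio of miR-21a-5p to let-7a-5p was -0.16, -0.07 and -0.46 in P4 and 0.08, -0.03 and 0.79 in P5. All P5 arrays lay above all P4 arrays, by 0.04 at the closest pair, so P4 replicate 2 and P5 replicate 2 were nearly equal. Of the ratios to the 15 other miRNAs that were among the 10 brightest with a number up to 1000 in either population, 10 were lower on every P4 array than on every P5 array, 0 were higher, and 5 overlapped. The overlapping ones were let-7b-5p, let-7f-5p, miR-19b-3p, miR-200a-3p and miR-200b-3p. A ratio also carries the partner's own difference, so these counts do not describe miR-21a-5p alone. Of the partners with lower ratios, miR-125b-5p, miR-143-3p, miR-145a-5p, miR-126-3p, miR-205-5p and miR-23a-3p themselves passed as higher in P4 with limma. Of the overlapping ones, all but let-7f-5p passed as lower in P4. To miR-200b-3p the mean ratio was 1.33 ± 0.20 in P4 and 0.74 ± 0.42 in P5 (SD, n = 3), the opposite direction. Against all 292 other miRNAs detected on every array, the ratio was lower on every P4 array for 159, higher for 5 and overlapped for 128.

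The other arm was close to the detection limit. miR-21a-3p, the strand that is mostly discarded when the hairpin is processed, gave 3.71, 15.0 and 6.57 units in P4 and 17.7, 12.6 and 7.58 units in P5. It was detected on P4 replicate 2 and on P5 replicates 1 and 2, which were the arrays with the highest scaling signal. It was detected on all 3 arrays of neither population and so was not tested, and a difference between the populations was not measurable at this brightness.

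The other relatives were mostly below detection. miR-21b was detected on P5 replicate 3 alone, at 11.1 units, the array where miR-21a-5p was highest. On the other arrays it gave 2.35 to 9.20 units. Its signal was 0.150% to 0.190% of that of miR-21a-5p on every array. miR-21c (-1.84 to 2.17 units) and miR-590-5p (-3.01 to -1.83 units) were detected on no array.

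The miRNAs of most similar profile were named by Pearson's r with miR-21a-5p over the 6 arrays, on log2 scaled signals, among 291 others detected on all arrays. They were miR-361-5p (r = 0.95), miR-3965 (0.93), let-7a-1-3p (0.92), let-7c-5p (0.92) and let-7b-5p (0.91), and these 5 were all with r over 0.9. All had their highest level on P5 replicate 3, as had miR-21a-5p. The arrays fall into 2 populations and share a scaling per array, so r describes these 6 arrays and gives no test. Without P5 replicate 3, r was 0.92, 0.86, 0.95, 0.88 and 0.95 in the same order, and none of the 5 stayed among the first 5.

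The let-7 members followed miR-21a-5p with smaller steps. They were chosen by r over these same arrays, so their differences between the populations are not independent of that choice. let-7b-5p had log2 scaled signals of 2.27, 2.06 and 2.10 in P4 and 2.79, 2.49 and 2.95 in P5, where the groups did not overlap. It passed the limma test as lower in P4 (-0.60 ± 0.17, adjusted p = 0.0357). let-7a-1-3p, from the 3p arm of a let-7a hairpin, was at -0.46 ± 0.17 (adjusted p = 0.0785), let-7c-5p as given above, and miR-361-5p was at -0.30 ± 0.14 (adjusted p = 0.155), and these did not pass.

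**Figure D4:**
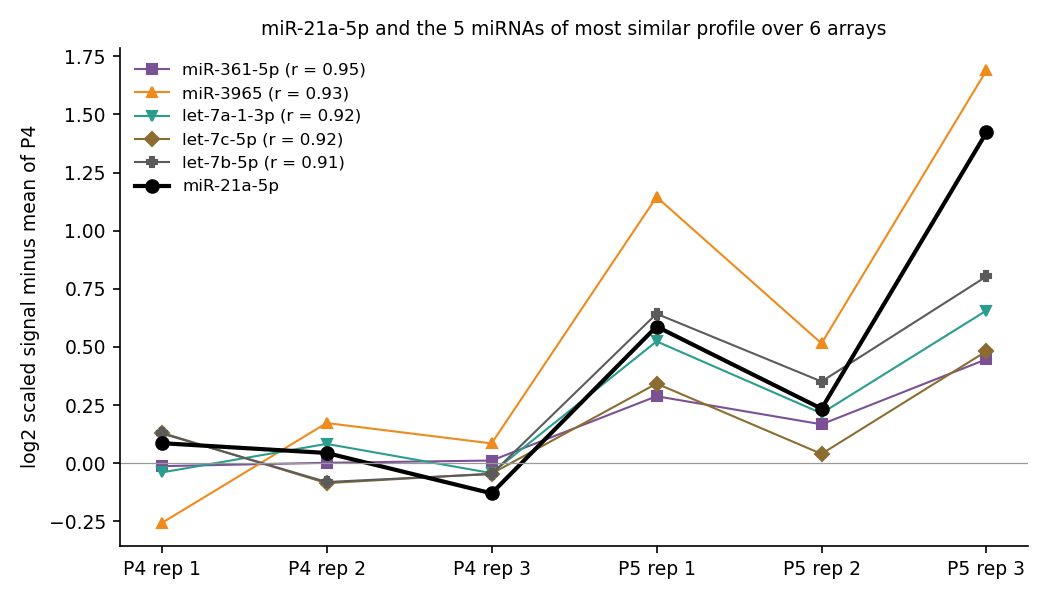
log2 scaled signal of miR-21a-5p (black) and the 5 miRNAs with the highest Pearson's r to it over 6 arrays, each minus its own mean in P4; lines only join the points of a miRNA. All 6 profiles are highest on P5 replicate 3, and miR-3965 has the widest steps, with a difference of -1.12 between P4 and P5.

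miR-3965 also resembles miR-21a-5p in sequence, while miR-361-5p shares only a short run of bases with it. Bases 1 to 19 of miR-3965 lie on bases 2 to 20 of miR-21a-5p with 17 matches and 2 differences, A2U and A12C, and the longest run they share is GCUUAUCAG, of 9 bases. miR-361-5p shares a run of 8, UUAUCAGA. Over the 1016 miRNAs on the array with a sequence in the table, the median longest run shared with miR-21a-5p was 4 bases, and 12 shared a run of 8 or more. The 3 let-7 miRNAs shared 4 bases. Aligned without gaps, miR-361-5p matched at 10 of 18 bases. let-7a-1-3p matched at 9 of 19, let-7c-5p at 9 of 21 and let-7b-5p at 8 of 14.

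The signal of miR-3965 moved with that of miR-21a-5p. It was 7.11, 19.7 and 13.2 units in P4 and 53.2, 29.9 and 46.4 units in P5, or 0.470% to 0.877% of the miR-21a-5p signal on the same array. The groups did not overlap, and it passed the limma test as lower in P4 (-1.12 ± 0.30, adjusted p = 0.0291). As miR-3965 was chosen by its r over these same arrays, this result is not independent of that choice. The part of shared sequence in these values was not tested. Of 237 miRNAs with a sequence and detection on all arrays, 3 shared a run of 8 or more bases with miR-21a-5p. They were miR-3965 (r = 0.93), miR-361-5p (r = 0.95) and miR-5132-3p (r = -0.43).

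**Figure D5:**
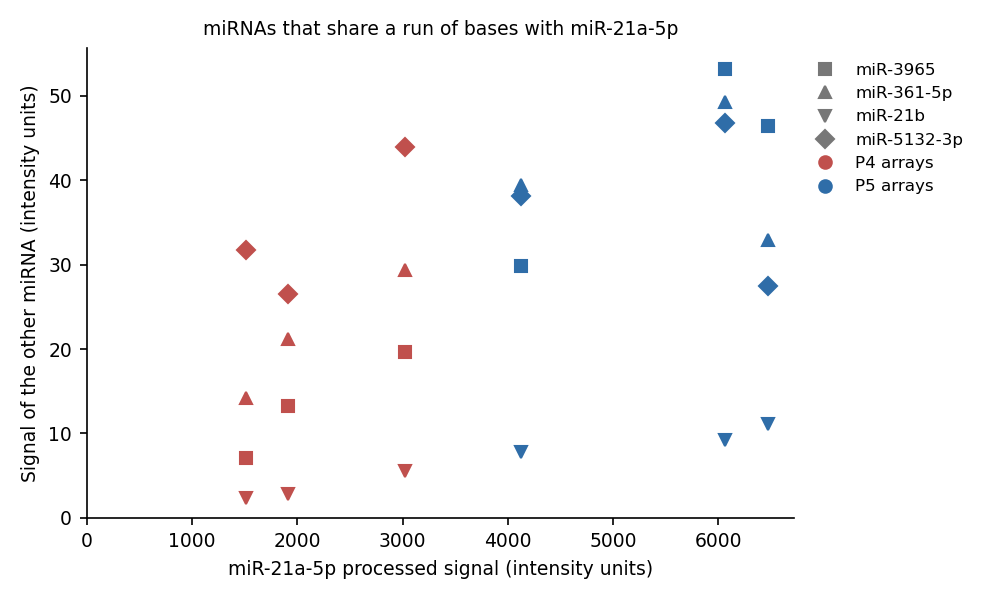
Processed signal (intensity units) of 4 of the 12 miRNAs that share a run of at least 8 bases with miR-21a-5p. It is set against the signal of miR-21a-5p on the same array. Colours give the population and shapes the miRNA. miR-3965 and miR-21b are lowest on the P4 array with the dimmest miR-21a-5p, while miR-5132-3p is among its lower values where miR-21a-5p is brightest.

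Other miRNAs known to be induced by the inflammatory and growth signals that act on miR-21 went both ways. Of 6 tested members 3 rose in P4 and 1 fell, against 27.8% of all tested miRNAs, and their median difference was 1.25 against 0.0013 over all. miR-221-3p (2.27 ± 0.17) and miR-222-3p (2.60 ± 0.26), cluster partners known to repress the cell cycle inhibitor p27, were higher in P4 (adjusted p = 6.56e-05 and 0.000321 with limma). miR-146a-5p, known for its induction by NF-kB, was higher in P4 (2.03 ± 0.20, adjusted p = 0.000298). It was detected on 2 P5 arrays and so passed the detection filter through P4 alone. miR-146b-5p, its seed relative, fell in P4 (-1.38 ± 0.24, adjusted p = 0.00449). miR-155-5p, a leukocyte miRNA (0.47 ± 0.27), and miR-181b-5p (-0.29 ± 0.14) did not pass.

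Of 6 miRNAs known, like miR-21, to be raised in breast tumours, 2 rose in P4 and 2 fell, with a median difference of 0.0094 against 0.0013 over all 370 tested, of which 13.8% rose and 14.1% fell. The 2 that rose were miR-221-3p and miR-222-3p, which both lists hold. miR-210-3p, induced by hypoxia, was detected on every P5 array but on no P4 array, and its level in P5 was at least 6.06-fold higher (adjusted p = 1.65e-05 with limma). It passed the detection filter through P5 alone and all its P4 values were set to the floor. Its call is thus not independent of the filter and floor. miR-96-5p fell in P4 (-0.70 ± 0.21, adjusted p = 0.0419), and its cluster partner miR-182-5p did not pass (-0.46 ± 0.21).

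Marker miRNAs of the sorted populations and of other cell types are given by their counts, to be read against the 13.8% of all tested miRNAs that rose in P4 and the 14.1% that fell. Of 3 basal and contractile markers 3 rose in P4, with a summed scaled signal of 24.3 to 42.7 in P4 against 1.58 to 2.28 in P5. All 5 miR-200 family members fell in P4, with sums of 7.33 to 11.8 against 21.3 to 26.7. Of the luminal markers miR-148a-3p fell in P4, and miR-375-3p was detected on no array. The sum of both endothelial miR-126 arms was 8.09, 9.39 and 20.6 in P4 and 2.32, 1.92 and 0.767 in P5. It was thus highest on P4 replicate 3, where miR-21a-5p was lowest, and lowest on P5 replicate 3, where miR-21a-5p was highest. P5 replicates 1 and 2 did not follow this, as replicate 1 had more of both (scaled miR-21a-5p 11.5 against 9.01). The leukocyte and fibroblast sums were also highest on P4 replicate 3. Of these, only the fibroblast sum was lowest on P5 replicate 3. Of 5 leukocyte markers 1 rose in P4, a share near that of all tested miRNAs, and their sums were 0.997 to 3.50 in P4 and 0.699 to 0.972 in P5. Their median P4 minus P5 difference was 0.91, against 0.0013 over all tested miRNAs. Of 4 fibroblast markers 3 rose and miR-214-3p was detected nowhere, with sums of 1.05 to 2.95 in P4 and 0.126 to 0.159 in P5. Of the 3, miR-199a-5p and miR-199b-5p passed the detection filter through P4 alone, with detection on 1 and 2 P5 arrays. Of 4 skeletal muscle markers 3 rose in P4, with no detection of miR-206-3p anywhere, and the sums were 0.465 to 0.790 in P4 and 0.0218 to 0.0317 in P5. Those 3 were detected on no P5 array and passed the detection filter through P4 alone, so this count is not independent of the filter. No erythroid marker was tested. miR-144-3p was detected on no array and miR-451a on 2 arrays of each population, with sums of 0.0358 to 0.0547 in P4 and 0.0161 to 0.0289 in P5. The part of other cells in the levels of miR-21a-5p was not tested.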

How the data were processed

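Scanner files of 6 arrays, 3 per population, hold the intensity of each spot; per the file headers they were written by Feature Extraction 11.0.1.1 (11.0 per the submitters' processing notes). The deposited intensity used is the processed signal, which the software had background-subtracted per the file headers. It is not scaled between arrays and can be negative. The authors' deposited value table holds log2 values that follow log2 of Agilent's summed signal to within 7.86e-06 once a shift for each array and a constant for each miRNA are added. Scale and direction thus follow the scanner values, while the centring stays unknown. It was used as an alternative only. Its column medians were 0.42, -0.36 and -0.06 in P4 and -0.56, -0.47 and 0.06 in P5.

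Control spots and outlier spots were left out. The signal was averaged per probe, then over probes, divided by the 75th percentile among miRNAs with detection on every array, floored at 0.0223 (from the 95th percentile of undetected signals, as a median of the 6 arrays) and taken to log2. Detection is Agilent's flag. The comparison used lmFit and eBayes of limma 3.58.1 (R 4.3.3), 2-sided and without a block, with Benjamini-Hochberg adjustment over 370 miRNAs; the fit was tested on simulated data. normexp used the median spot and background signals, as the files hold no mean signal, with an offset of 50. "At least" folds set the bright mean against the higher of floor, lowest detected signal and own signal. Single values used exact permutation tests in scipy 1.17.1. The number of arrays limits the precision.

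Named miRNAs were miR-21a-5p and its relatives, the 10 brightest per population, the 5 of highest r, its neighbours in rank, and members of 2 lists of related miRNAs and 8 marker lists. miRNAs sharing a run of bases, and those furthest above the other P5 arrays on P5 replicate 3, were added after seeing the data. Members and lists were chosen with earlier results of these data known. Of 1247 array names 1017 matched RefSeq's table.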

Additional observations from a re-analysis of the deposited data

How the results depend on the processing

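miR-21a-5p lay lower in P4 under all 23 alternatives and passed the threshold under 4. Some alternatives, such as the replicate block and no filter, change the test but not the estimate. Leaving out 1 array could not change the sign either, since the groups did not overlap. miR-21a-5p was at -1.40 with no scaling, -0.92 when scaled over all miRNAs, -0.97 with quantile normalization and -0.89 with normexp and quantile normalization. Under the other alternatives it did not pass, with the authors' processed values at -1.07 (adjusted p = 0.0641). Without 1 array at a time it ranged from -1.01 to -0.41 (adjusted p from 0.0501 to 0.188). Over all alternatives the adjusted p ranged from 0.00888 to 0.411. The number of called miRNAs was 103 (51 higher and 52 lower in P4), 52 with the slide row as a term, 47 with no filter (more miRNAs tested), and from 85 to 121 without 1 array at a time. The calls split into 23 higher and 77 lower with no scaling, 47 and 77 when all miRNAs set the scale, and 31 and 81 with the authors' values. The share difference ranged from -1.13 to -0.619 percentage points without 1 array. The mean rank was 17.7 in P4 and 7.67 in P5, from 16.5 to 19 and from 6.5 to 8.5 without 1 array, and 8.67 and 1.33 among names numbered up to 1000, by construction a shorter list. The deviations of same-numbered arrays from their population means had correlations of -0.07, 0.37 and 0.09. These cannot show whether the numbers pair the samples, and the labels do not say. With the replicate block in the limma fit the difference was -0.75 (adjusted p = 0.127) and 111 miRNAs were called. miR-21a-3p passed no detection filter, so its alternatives were not run.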

Other observations

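P5 replicate 3 lay above the mean of the other P5 arrays by 1.01 on the log2 scale in miR-21a-5p, where the median of the 293 miRNAs detected on all arrays was 0.18. In 6 of these miRNAs it stood further above, namely miR-335-5p (1.82), miR-804 (1.81), miR-3106-5p (1.70), miR-22-5p (1.67), miR-5119 (1.39) and miR-5620-3p (1.02), which were named after their values were seen. The deposited values of miR-21a-5p, which carry the authors' shifts, were -0.77, -0.56 and -0.94 in P4 and 0.23, -0.23 and 0.96 in P5.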
